A study of Homo sapiens with 8 samples.

Results

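Transcripts of 3 families of splicing proteins were followed in HEL and MOLM-13 cells after an shRNA against DDX6: the SR proteins, the hnRNPs, and the SF3a and SF3b proteins. Members were taken by gene symbol (SRSF, HNRNP, SF3A or SF3B followed by a number or letter code), leaving out pseudogene symbols, with at least 100 counts summed over the 8 libraries. Of 61544 entries, 46 matched by symbol and 40 reached the minimum: 11 SR genes, 20 hnRNP genes, 3 SF3a genes and 6 SF3b genes. HNRNPLL, with 4371 counts over the 8 libraries, was the member nearest the minimum, and the 6 symbols that did not reach it were HNRNPA1L2 at 0 counts, HNRNPCL1 at 19, SRSF12 at 7, and HNRNPCL2, HNRNPCL3 and HNRNPCL4 at 3 each. All 40 members also passed the filter on low counts.

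SR proteins carry RNA recognition motifs and a domain rich in arginine and serine, and bind exons to recruit the splicing machinery. hnRNPs coat nascent pre-mRNA, often at silencers, and many of them also act in export, stability or translation. SF3a and SF3b are parts of the U2 snRNP, which recognises the branch site of the intron; SF3B1 and SRSF2 are among the splicing genes recurrently mutated in myeloid neoplasms. Many SR and hnRNP genes control their own transcripts through alternative exons that expose the mRNA to nonsense-mediated decay.

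The study set lentiviral DDX6 shRNA against lentiviral control shRNA in each line, and all cells in all 4 groups had been selected with puromycin. HEL is a leukaemia line with erythroid and megakaryocytic features, MOLM-13 a monocytic leukaemia line, and DDX6 is an RNA helicase of the P-body, a cytoplasmic granule that holds untranslated mRNA. Each of the 4 groups (HEL control, HEL DDX6 shRNA, MOLM-13 control, MOLM-13 DDX6 shRNA) had 2 libraries. The labels do not say whether these were separate cultures, so p-values here rest on library-to-library spread that could be purely technical. Whether 1 hairpin or several were used in MOLM-13 is not stated in the labels. The HEL count columns carry a hairpin number for the DDX6 shRNA, and the MOLM-13 columns do not. The hairpin may therefore differ between the lines, and a difference between lines cannot be told apart from a difference of hairpin.

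Libraries held 10719829 to 12093544 counts in HEL and 7888318 to 8174432 in MOLM-13. DDX6 itself was at 177 and 180 CPM (counts scaled here to library size with TMM factors) in HEL control and 96.8 and 94.8 CPM in HEL DDX6 shRNA. It was at 126 and 122 CPM in MOLM-13 control and 67.9 and 74.2 CPM in MOLM-13 DDX6 shRNA, so that 53.8% and 57.4% of the control level was left in HEL and MOLM-13. Summed erythroid and megakaryocytic markers (12 genes) were at 2580 to 2840 CPM in the HEL libraries and 29.7 to 36.2 CPM in those of MOLM-13, while summed monocytic and myeloid markers (12 genes) were at 292 to 297 CPM in the HEL libraries and 5140 to 5630 CPM in those of MOLM-13. Lymphoid markers (8 genes) summed to 21.3 to 22.6 CPM in HEL control and 51.1 to 52.9 CPM after DDX6 shRNA, and the MOLM-13 sums were 11.9 to 12.3 CPM and 62.7 to 71.1 CPM. Stromal, endothelial and epithelial markers (9 genes) summed to 67.4 to 75.7 CPM in HEL control against 90.7 to 96.2 CPM, and to 15.3 to 17.0 CPM in MOLM-13 control against 17.2 to 21.6 CPM. The part of these markers in the results below was not tested. The MOLM-13 control libraries differed from each other more than the other pairs did, with a chi-square per degree of freedom of 3.69 against 1.46 to 1.77.

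In the joint fit of all 8 libraries, more members fell in MOLM-13 than in HEL, but the HEL count depended on the fit. In MOLM-13, 23 of the 40 members fell and 0 rose (edgeR quasi-likelihood test, Benjamini-Hochberg adjusted p under 0.05 over 16499 genes), where 14.3% of all genes tested fell and 18.1% rose. At an unadjusted p under 0.05, 1 member rose in MOLM-13, and DESeq2 called 0 higher and 18 lower there. In HEL, 6 of the 40 fell and 2 rose, where 14.1% of all genes tested fell and 20.7% rose. The median log2 fold change of the members was -0.20 in MOLM-13 and -0.03 in HEL, beside 0.00 and 0.03 over all genes tested. Members are abundant transcripts, and among the 4553 genes at least as high as the lowest member 20.2% fell and 25.0% rose in MOLM-13, and 18.3% fell and 29.3% rose in HEL. With each line fitted alone, 18 of 40 members fell in HEL, where 22.1% of all genes tested fell, and 19 of 40 fell in MOLM-13, where 15.2% did. Without the first MOLM-13 control library the counts were 17 in HEL and 20 in MOLM-13, and without the second they were 17 and 23. The calls made under every alternative were 4 in HEL (SRSF11, HNRNPA1, HNRNPAB and HNRNPUL1) and 14 in MOLM-13. In MOLM-13 the other 9 (SRSF1, SRSF2, SRSF8, SRSF10, HNRNPC, HNRNPL, HNRNPR, SF3A1 and SF3B4) were each lost without at least 1 of the libraries, and DESeq2 did not call SRSF1, SRSF10, HNRNPR, SF3A1 or SF3B4 there.

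Summed over the 40 members, their transcripts made up 1.785% and 1.763% of each HEL control library and 1.656% and 1.643% of each HEL DDX6 shRNA library. In MOLM-13 the share was 1.654% and 1.552% in control and 1.377% and 1.378% after DDX6 shRNA. The DDX6 shRNA libraries of each line lay below both of its control libraries. In bulk RNA a smaller share of cells with a transcript and less of it per cell cannot be told apart.

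**Figure D1:**
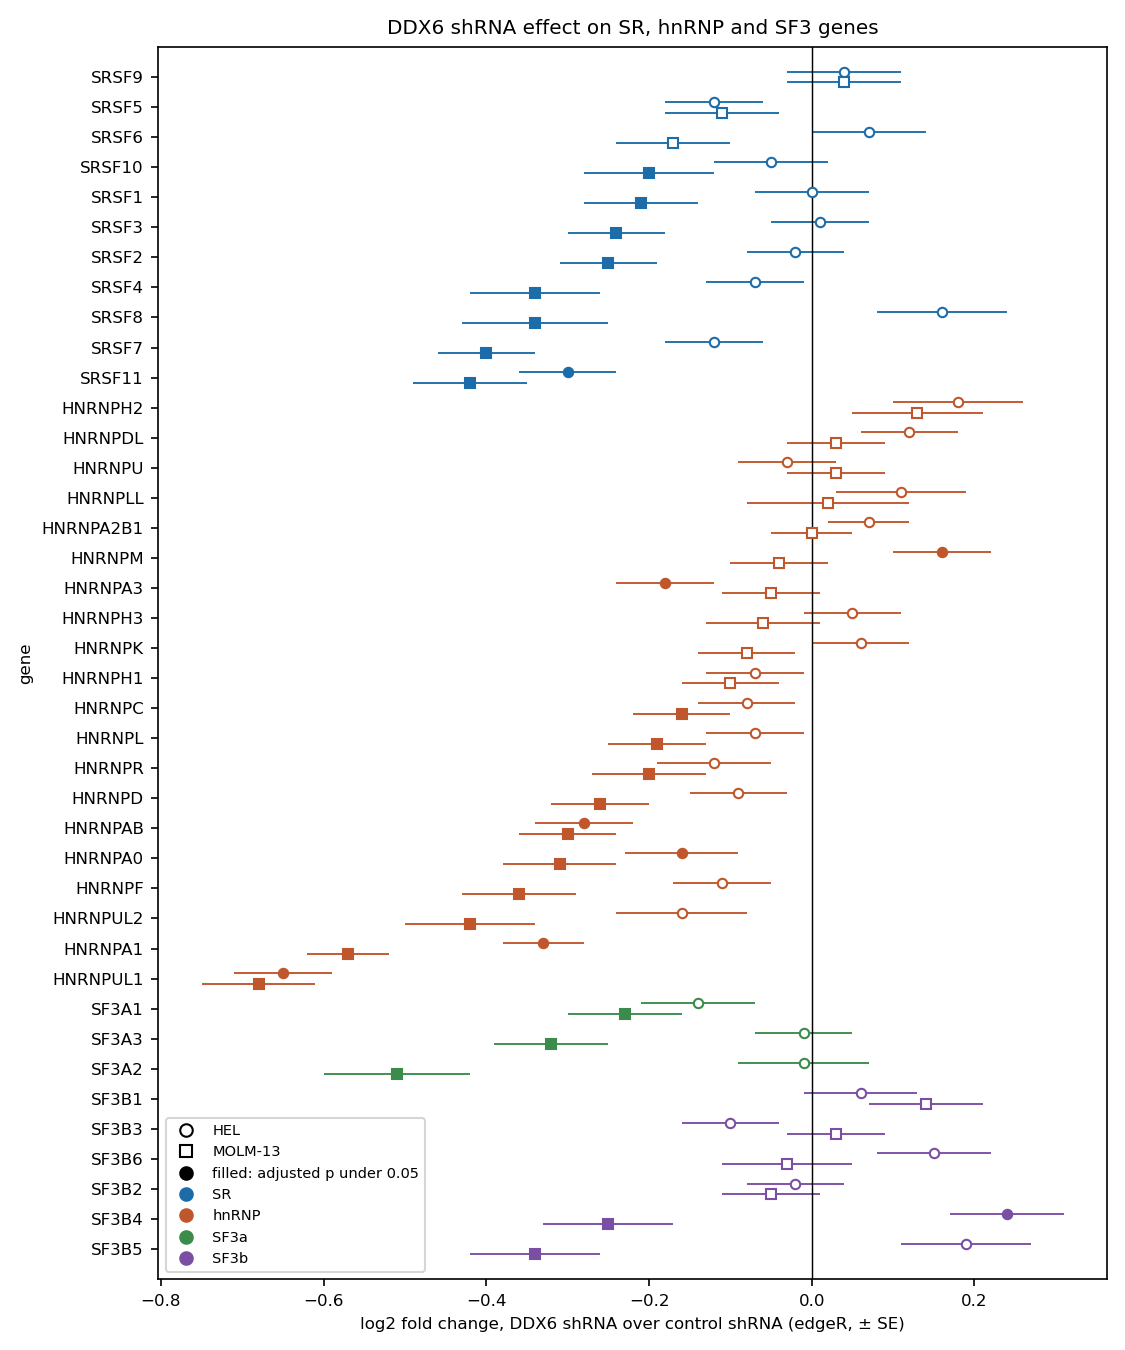
Log2 fold change (x axis) of each of the 40 genes (y axis) for DDX6 shRNA over control shRNA, with bars of 1 SE from edgeR; circles are HEL, squares are MOLM-13, colours are families, and filled symbols have an adjusted p under 0.05. In MOLM-13, 23 symbols are filled and all lie left of 0, while in HEL 6 filled symbols lie left of 0 and 2 lie right of it.

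Among the SR genes, 8 of 11 fell in MOLM-13 and 1 of 11 fell in HEL, with medians of -0.24 and -0.02 on the log2 scale. These counts were 72.7% and 9.09% of the SR genes, beside 14.3% and 14.1% of all genes tested. SRSF11 is an SR protein with an RNA recognition motif whose known partners include the U2AF complex. In the joint fit it was the 1 SR gene that fell in both lines. Its transcript (ENSG00000116754, chromosome 1, 70205682 to 70253052, plus strand, GRCh38) was at 693 and 680 CPM in HEL control and 548 and 570 CPM after DDX6 shRNA. In MOLM-13 it was at 297 and 263 CPM in control and 208 and 211 CPM after DDX6 shRNA. The groups did not overlap in either line, and SRSF11 changed by -0.30 ± 0.06 (log2, ± SE) in HEL (edgeR adjusted p = 0.000112) and -0.42 ± 0.07 in MOLM-13 (edgeR adjusted p = 1.84e-06). The control level in MOLM-13 was below the DDX6 shRNA level in HEL, so the lines differ in SRSF11 level by more than the shRNA changed it.

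SRSF7, which has a zinc knuckle beside its RNA recognition motif and links splicing with mRNA export, stood at 371 and 361 CPM in MOLM-13 control and 280 and 275 CPM after DDX6 shRNA. In HEL it was at 319 CPM in both control libraries and at 297 and 291 CPM after DDX6 shRNA. It fell in MOLM-13 by 0.40 ± 0.06 on the log2 scale (edgeR adjusted p = 1.41e-06), missed the threshold in HEL (-0.12 ± 0.06, edgeR adjusted p = 0.128), and fell further in MOLM-13 than in HEL (difference -0.28 ± 0.09, edgeR adjusted p = 0.0203). That difference did not pass the test without any 1 of 6 libraries, namely the 4 HEL libraries and both MOLM-13 DDX6 shRNA libraries. With HEL fitted alone SRSF7 was called lower there (-0.15, edgeR adjusted p = 0.00173). It was also called lower in HEL with upper-quartile scaling (-0.15, edgeR adjusted p = 0.0378).

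SRSF4 was at 118 CPM in both MOLM-13 control libraries and at 97.6 and 88.7 CPM after DDX6 shRNA, a fall of 0.34 ± 0.08 on the log2 scale (edgeR adjusted p = 0.000423). Its HEL libraries were higher throughout, at 293 and 291 CPM in control and 281 and 276 CPM after DDX6 shRNA. The log2 fold change of -0.07 ± 0.06 there did not pass the test in the joint fit. With HEL fitted alone SRSF4 was called lower (-0.10, edgeR adjusted p = 0.0312). SRSF8, an intronless relative of SRSF2, was at 55.0 and 56.2 CPM in MOLM-13 control and 45.8 and 42.1 CPM after DDX6 shRNA. In HEL it was at 65.0 and 64.0 CPM in control and 72.0 and 72.3 CPM after DDX6 shRNA. Its log2 fold change was -0.34 ± 0.09 in MOLM-13 (edgeR adjusted p = 0.00378) and 0.16 ± 0.08 in HEL (edgeR adjusted p = 0.103), and the lines differed by -0.50 ± 0.12 (edgeR adjusted p = 0.00276). Reads from stretches that SRSF8 and SRSF2 share could be split between them, so the level of SRSF8 is uncertain.

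SRSF2, which binds exonic enhancers, was at 356 and 348 CPM in MOLM-13 control and 291 and 303 CPM after DDX6 shRNA, without overlap. It was at 343 and 330 CPM in HEL control and 329 and 333 CPM in HEL DDX6 shRNA, which overlapped. It fell in MOLM-13 by 0.25 ± 0.06 on the log2 scale (edgeR adjusted p = 0.0018) and had a log2 fold change of -0.02 ± 0.06 in HEL, and the difference of -0.22 ± 0.09 missed the threshold (edgeR adjusted p = 0.0758). Its exons share 1106 bases with MFSD11 on the opposite strand, and since the strand setting of the counts is not known, reads of the pair cannot be told apart.

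SRSF1, the best studied SR protein and a known oncoprotein, was at 176 and 161 CPM in MOLM-13 control and 145 and 147 CPM after DDX6 shRNA. Its HEL libraries were at 214 and 209 CPM in control and 215 and 208 CPM after DDX6 shRNA. The fall in MOLM-13 was -0.21 ± 0.07 on the log2 scale (edgeR adjusted p = 0.0196), and in HEL the 95% interval of the log2 fold change ran from -0.13 to 0.13. SRSF1 shares 1890 exon bases with AC015813.2 on the same strand. SRSF3, the smallest SR protein, fell in MOLM-13 (-0.24 ± 0.06) and not detectably in HEL (0.01 ± 0.06), and the lines differed (-0.25 ± 0.08, edgeR adjusted p = 0.0311), a call lost when any 1 of the HEL libraries or of the MOLM-13 DDX6 shRNA libraries was left out. SRSF10, a splicing repressor when dephosphorylated, completed the SR genes that fell in MOLM-13 (-0.20 ± 0.08, edgeR adjusted p = 0.0416), but 1 control library decided it: the controls were at 223 and 176 CPM and the DDX6 shRNA libraries at 169 and 178 CPM, and without the first control library the log2 fold change was -0.01. In the joint fit SRSF5, SRSF6 and SRSF9 passed the test in neither line, with log2 fold changes from -0.17 to 0.07. SRSF9 shares 1729 exon bases with GATC on the opposite strand. With HEL fitted alone SRSF5 was called lower there (-0.15, edgeR adjusted p = 0.00188), as it was with upper-quartile scaling and with the GC trend removed.

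**Figure D2:**
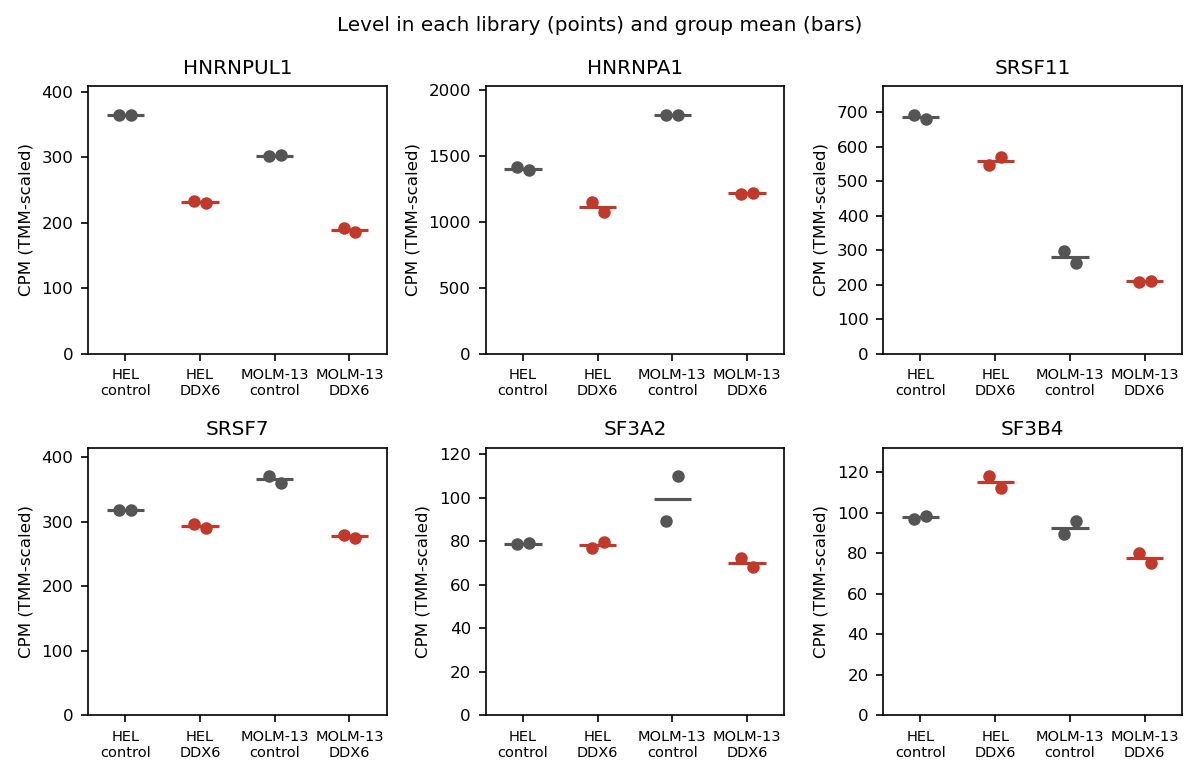
Level in TMM-scaled CPM (y axis, from 0) of HNRNPUL1, HNRNPA1, SRSF11, SRSF7, SF3A2 and SF3B4 in each of the 8 libraries (points) with the mean of each group (horizontal bars), grey for control and red for DDX6 shRNA. HNRNPUL1, HNRNPA1, SRSF11 and SRSF7 sit lower after DDX6 shRNA in both lines, SF3A2 overlaps in HEL, and SF3B4 moves up in HEL from 96.9 and 98.3 CPM and down in MOLM-13 from 89.5 and 95.7 CPM.

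Among the hnRNP genes, 10 of 20 fell in MOLM-13, with 0 rising, and 5 of 20 fell in HEL, with 1 rising. Their medians were -0.13 and -0.07 on the log2 scale. Over all genes tested, 14.3% fell and 18.1% rose in MOLM-13, and 14.1% fell and 20.7% rose in HEL. HNRNPUL1, a relative of HNRNPU with roles in RNA processing and in the DNA damage response, had the most negative log2 fold change of the 40 members in each line. Its transcript (ENSG00000105323, chromosome 19, 41262496 to 41307598, plus strand, GRCh38) was at 364 and 365 CPM in HEL control and 233 and 230 CPM after DDX6 shRNA. In MOLM-13 it was at 302 and 303 CPM in control and 192 and 186 CPM after DDX6 shRNA. The level left was 63.6% of control in HEL and 62.5% in MOLM-13, with log2 fold changes of -0.65 ± 0.06 (edgeR adjusted p = 9.57e-12) and -0.68 ± 0.07 (edgeR adjusted p = 1.15e-11). The lines did not differ detectably, with a difference of -0.03 and a 95% interval from -0.21 to 0.15. Its exons share 215 bases with TGFB1 on the opposite strand.

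HNRNPA1, an abundant shuttling hnRNP that binds splicing silencers (ENSG00000135486, chromosome 12, 54280193 to 54287088, plus strand, GRCh38), was at 1410 and 1390 CPM in HEL control and 1150 and 1070 CPM after DDX6 shRNA. Its MOLM-13 libraries were at 1810 CPM in both controls and at 1210 and 1220 CPM after DDX6 shRNA. It fell in both lines, by 0.33 ± 0.05 on the log2 scale in HEL (edgeR adjusted p = 3.02e-06) and by 0.57 ± 0.05 in MOLM-13 (edgeR adjusted p = 8.52e-12). The change was more negative in MOLM-13 (difference -0.24 ± 0.08, edgeR adjusted p = 0.0249), a call lost without any 1 of 5 libraries: both HEL control libraries, the first HEL DDX6 shRNA library and both MOLM-13 DDX6 shRNA libraries. HNRNPA1 has many processed pseudogenes, and 75 such entries held 2272 counts in all, 2.13% of the count of HNRNPA1. Pooled, these entries were at 26.9 CPM in HEL control and 20.8 CPM after DDX6 shRNA. They were at 48.0 and 25.2 CPM in MOLM-13, so they moved in the direction of the parent gene. In the MOLM-13 controls 1 entry, HNRNPA1P48, held 222 and 250 of the 376 and 380 pooled counts. Reads of HNRNPA1 could be placed at such entries, so the shared direction may not be independent.

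HNRNPAB, an hnRNP of the A/B type, was at 345 and 342 CPM in HEL control and 296 and 270 CPM after DDX6 shRNA. In MOLM-13 it was at 366 and 373 CPM in control and 292 and 308 CPM after DDX6 shRNA. The changes were near each other in size, -0.28 ± 0.06 in HEL (edgeR adjusted p = 0.000396) and -0.30 ± 0.06 in MOLM-13 (edgeR adjusted p = 0.000211), with a difference of -0.02 and a 95% interval from -0.20 to 0.16. HNRNPF, which binds runs of guanine, fell in MOLM-13 (-0.36 ± 0.07, edgeR adjusted p = 1.91e-05), from 473 and 447 CPM to 334 and 382 CPM. In HEL it was at 365 and 370 CPM in control and 352 and 329 CPM after DDX6 shRNA (-0.11 ± 0.06), and the difference between lines of -0.25 ± 0.09 just missed the threshold (edgeR adjusted p = 0.0543).

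HNRNPA0, which binds AU-rich elements, also fell in both lines (-0.16 ± 0.07 in HEL and -0.31 ± 0.07 in MOLM-13), but its HEL call (edgeR adjusted p = 0.049) was kept under 10 of 17 alternatives and lost, among others, without any 1 of the HEL libraries. HNRNPA3 fell in HEL (-0.18 ± 0.06, edgeR adjusted p = 0.0105) and had a log2 fold change of -0.05 ± 0.06 in MOLM-13, and its HEL call was lost without the first control library or either DDX6 shRNA library. HNRNPM was the 1 hnRNP that rose, in HEL (0.16 ± 0.06, edgeR adjusted p = 0.0276); this call was lost without either HEL control library, the first HEL DDX6 shRNA library or either MOLM-13 DDX6 shRNA library, with no filter and with upper-quartile scaling. The other hnRNP genes that fell in MOLM-13 were HNRNPUL2 (-0.42), HNRNPD (-0.26), HNRNPR (-0.20), HNRNPL (-0.19) and HNRNPC (-0.16). Of these, HNRNPUL2 and HNRNPD were called under each alternative tried, while HNRNPR went to -0.05 without the first MOLM-13 control library. HNRNPUL2 shares 2391 exon bases with HNRNPUL2-BSCL2 on the same strand, and how such reads were counted is not known. HNRNPA2B1, the member with the most counts (125894), had a log2 fold change of 0.00 in MOLM-13 with a 95% interval from -0.11 to 0.11, and 0.07 in HEL with an interval from -0.04 to 0.18. In the joint fit HNRNPDL, HNRNPH1, HNRNPH2, HNRNPH3, HNRNPK, HNRNPLL and HNRNPU likewise passed the test in neither line, with log2 fold changes from -0.10 to 0.18. HNRNPU shares 3502 exon bases with COX20 on the opposite strand. With HEL fitted alone, HNRNPH1 was called lower there (-0.11, edgeR adjusted p = 0.0146). HNRNPC (-0.11), HNRNPD (-0.12) and HNRNPF (-0.14) were also called lower in that fit (edgeR adjusted p = 0.0118, 0.00691 and 0.00392).

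All 3 SF3a genes fell in MOLM-13, 2 of the 6 SF3b genes did, and 0 of the 9 fell in HEL in the joint edgeR fit or by DESeq2 (1 at an unadjusted p under 0.05), where SF3B4 rose. Over all genes tested, 14.3% fell in MOLM-13, and 14.1% fell and 20.7% rose in HEL. With HEL fitted alone, SF3A1 (-0.18, edgeR adjusted p = 0.00226) and SF3B3 (-0.14, edgeR adjusted p = 0.00471) were called lower there, and both were also called without either MOLM-13 control library. SF3A1 was called lower in HEL as well with upper-quartile scaling, with the GC trend removed and without either MOLM-13 DDX6 shRNA library. SF3A2 (ENSG00000104897, chromosome 19, 2236504 to 2248679, plus strand, GRCh38), a subunit that contacts the pre-mRNA near the branch site, was at 89.4 and 110 CPM in MOLM-13 control and 72.1 and 68.2 CPM after DDX6 shRNA. It was at 78.8 and 79.0 CPM in HEL control and 77.0 and 79.5 CPM after DDX6 shRNA. The DDX6 shRNA libraries of MOLM-13 lay below both controls, by 0.51 ± 0.09 on the log2 scale (edgeR adjusted p = 9.05e-06), while the HEL groups overlapped (-0.01 ± 0.08), and the lines differed (-0.49 ± 0.12, edgeR adjusted p = 0.00258). The 2 MOLM-13 controls lay far apart for SF3A2, and without the second of them the log2 fold change was -0.34. Its exons share 398 bases with PLEKHJ1 on the opposite strand.

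SF3A3, an SF3a subunit with a zinc finger, was at 270 and 276 CPM in MOLM-13 control and 231 and 207 CPM after DDX6 shRNA. In HEL it was at 366 and 363 CPM in control and 373 and 352 CPM after DDX6 shRNA. It fell in MOLM-13 (-0.32 ± 0.07, edgeR adjusted p = 0.000184), not detectably in HEL (-0.01 ± 0.06), and the difference of -0.31 ± 0.09 passed the test (edgeR adjusted p = 0.0151) but not without either HEL control library, the first HEL DDX6 shRNA library or the second MOLM-13 DDX6 shRNA library. SF3A1, the largest SF3a subunit, fell in MOLM-13 by 0.23 ± 0.07 on the log2 scale (edgeR adjusted p = 0.0134) and stood at -0.14 ± 0.07 in HEL, with no detectable difference between lines.

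SF3B4 (ENSG00000143368, chromosome 1, 149923317 to 149928344, minus strand, GRCh38), which contacts the intron upstream of the branch site, was the 1 member with opposite calls. It was at 96.9 and 98.3 CPM in HEL control and 118 and 112 CPM after DDX6 shRNA. In MOLM-13 it was at 89.5 and 95.7 CPM in control and 80.2 and 75.0 CPM after DDX6 shRNA. It rose in HEL by 0.24 ± 0.07 (edgeR adjusted p = 0.00757) and fell in MOLM-13 by 0.25 ± 0.08 (edgeR adjusted p = 0.013), and of all genes tested 0.818% had this pair of calls. The difference, -0.49 ± 0.11 (edgeR adjusted p = 0.000931), held under every alternative tried, but the HEL call was lost without either HEL control library or the first HEL DDX6 shRNA library, and the MOLM-13 call without the second control or the second DDX6 shRNA library.

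SF3B5, a small SF3b subunit (ENSG00000169976, chromosome 6, 144094881 to 144095573, minus strand, GRCh38), was at 140 and 156 CPM in MOLM-13 control and 120 and 114 CPM after DDX6 shRNA. It was at 80.4 and 75.6 CPM in HEL control and 91.4 and 86.3 CPM after DDX6 shRNA. The log2 fold change was -0.34 ± 0.08 in MOLM-13 (edgeR adjusted p = 0.000471) and 0.19 ± 0.08 in HEL (edgeR adjusted p = 0.0522), and the difference between lines of -0.52 ± 0.11 was the most negative of the 40 (edgeR adjusted p = 0.000435). SF3B6, which lies close to the branch adenosine, was at 123 and 114 CPM in HEL control and 133 and 131 CPM after DDX6 shRNA (0.15 ± 0.07, edgeR adjusted p = 0.0864), and at 121 and 123 CPM in MOLM-13 control and 125 and 115 CPM after DDX6 shRNA. SF3B1, the scaffold of SF3b, was at 628 and 607 CPM in HEL control and 664 and 624 CPM after DDX6 shRNA. In MOLM-13 it was at 461 and 373 CPM in control and 450 and 470 CPM after DDX6 shRNA. Its groups overlapped in each line, and its log2 fold change had 95% intervals from -0.07 to 0.19 in HEL and from 0.00 to 0.28 in MOLM-13 (edgeR adjusted p = 0.115). The MOLM-13 value of SF3B1 rested on single control libraries: without the first it was 0.31 (edgeR adjusted p = 2.26e-06), without the second 0.007, and with the GC trend removed it was called higher (edgeR adjusted p = 0.0192). In the joint fit SF3B2 and SF3B3 passed the test in neither line, with log2 fold changes from -0.10 to 0.03.

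The comparison of the lines with each other tested whether the change in MOLM-13 differed from that in HEL. It called 8 of the 40 members, all more negative in MOLM-13 (SF3A2, SF3A3, SF3B4, SF3B5, SRSF3, SRSF7, SRSF8 and HNRNPA1), where 7.59% of all genes tested were called in this direction and 7.53% in the other. SF3B4 and SF3B5 were called under each alternative that was run. Of the 40, 34 had a more negative log2 fold change in MOLM-13, and the median difference was -0.13 beside -0.03 over all genes. In the joint fit the members called lower in both lines were SRSF11, HNRNPA0, HNRNPA1, HNRNPAB and HNRNPUL1, 5 of 40, beside 5.43% of all genes tested. A further 17 members fell in MOLM-13 and had no call in HEL, beside 8.04% of all genes, but 11 of those 17 were not called in the test between lines.

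**Figure D3:**
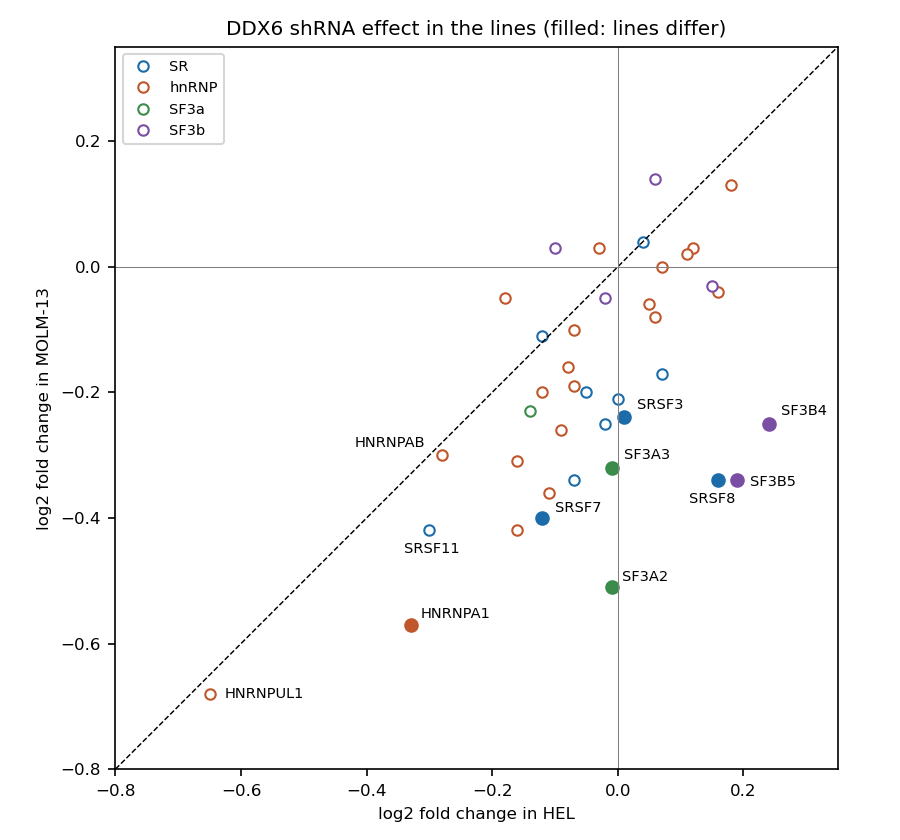
Log2 fold change after DDX6 shRNA in HEL (x axis) and in MOLM-13 (y axis) for the 40 genes, coloured by family, with the dashed line where both are equal; filled points had an adjusted p under 0.05 for the difference between lines. Of the 40 points 34 lie below the dashed line, HNRNPUL1 lies near it at -0.65 and -0.68, and SF3B4 lies at 0.24 and -0.25.

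Levels in control cells were taken per kilobase of 1 annotated transcript for each gene. The lowest was HNRNPLL in each line (14.4 CPM per kb in HEL). The highest was HNRNPA2B1 in HEL (461 CPM per kb) and HNRNPC in MOLM-13 (463 CPM per kb). Counts are sums over all transcripts of a gene, so the order depends on the transcript taken (1714 bases for HNRNPC and 4121 for HNRNPA1). By this measure the 4 members with the highest level were the same in each line, HNRNPA2B1, HNRNPC, HNRNPA3 and HNRNPA1. Of these, HNRNPA1 fell in both lines, HNRNPA3 in HEL and HNRNPC in MOLM-13, and HNRNPA2B1 passed the test in neither.

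Other parts of the splicing machinery were read from 8 lists with 108 genes tested. The lists were chosen with earlier results of these data known, so their shares are descriptions. Over all 8 lists, 39 genes fell and 5 rose in MOLM-13, or 36.1% and 4.63% beside 14.3% and 18.1% of all genes. In HEL 22 fell and 15 rose, or 20.4% and 13.9% beside 14.1% and 20.7% of all genes. Among the 4553 genes at least as high as the lowest member, 20.2% fell and 25.0% rose in MOLM-13. In HEL 18.3% of those fell and 29.3% rose. Of the 13 U1, U2 and Sm core proteins, 7 fell and 1 rose in MOLM-13, or 53.8% and 7.69%. In HEL 2 of them fell and 4 rose, or 15.4% and 30.8%. SNRPF, a subunit of the Sm ring, fell in MOLM-13 (-0.59 ± 0.08, edgeR adjusted p = 3.1e-08) while SNRPN, a neuronal form of the Sm B protein, rose there (0.70 ± 0.10, edgeR adjusted p = 2.76e-07). SNRPA1 and SNRPB2, which are U2 snRNP proteins, rose in HEL (0.62 ± 0.07 and 0.38 ± 0.07, edgeR adjusted p = 2.29e-10 and 2.71e-05) and had log2 fold changes of -0.09 and -0.13 in MOLM-13. In this list the change was more negative in MOLM-13 for 9 of 13 genes by the test between lines and more positive for 1. Over all genes tested the shares were 7.59% and 7.53%. Over all 8 lists this test called 24 genes more negative in MOLM-13 and 6 more positive, or 22.2% and 5.56%. The list of SR protein kinases and importers went the other way, with 0 more negative and 3 of 9 more positive, or 33.3%.

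Of 14 SR-related proteins, 9 fell in MOLM-13 and 6 in HEL, with 1 rising in HEL. The shares that fell were 64.3% and 42.9%, beside 14.3% and 14.1% of all genes. TRA2A, an activator of exon inclusion, fell by 0.49 ± 0.08 on the log2 scale in HEL (edgeR adjusted p = 3.73e-06), and SRRM2, a scaffold of nuclear speckles, fell by 0.45 ± 0.07 in MOLM-13 (edgeR adjusted p = 1.86e-06). SRRM1 fell by 0.44 in HEL and THRAP3 by 0.40 in MOLM-13. Each of these genes was also called lower in the other line. The log2 fold changes there were -0.27 for TRA2A and -0.23 for SRRM1 in MOLM-13, and -0.32 for SRRM2 and -0.18 for THRAP3 in HEL. None of them was called in the test between lines. Among 9 kinases and importers of SR proteins, 3 fell in HEL and 2 in MOLM-13, or 33.3% and 22.2%. Of the 4553 genes at least as high as the lowest member, 18.3% fell in HEL and 20.2% in MOLM-13. CLK2 fell in both lines (-0.30 ± 0.07 in HEL and -0.56 ± 0.08 in MOLM-13). CLK1 fell in HEL (-0.60 ± 0.07, edgeR adjusted p = 1.41e-08) and differed between lines (0.48 ± 0.11, edgeR adjusted p = 0.00175). Both CLK1 and CLK2 phosphorylate SR proteins in the nucleus. SRPK1, which phosphorylates them in the cytoplasm, fell by 0.35 ± 0.09 on the log2 scale in MOLM-13 (edgeR adjusted p = 0.00246).

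Of 5 exon junction complex genes, 3 fell in MOLM-13 and 1 fell and 1 rose in HEL. Among all genes tested, 14.3% fell and 18.1% rose in MOLM-13, and 14.1% fell and 20.7% rose in HEL. With 1 of 5 genes in each direction, the HEL counts were near the shares of all genes. MAGOH and MAGOHB, which encode nearly the same subunit, fell in MOLM-13 (-0.62 ± 0.09 and -0.59 ± 0.11, edgeR adjusted p = 9.04e-07 and 2.77e-05), and reads from the stretches they share could be split between them. CASC3 fell in HEL (-0.19 ± 0.07, edgeR adjusted p = 0.0359). In MOLM-13 it had the same log2 fold change without a call (-0.19 ± 0.08, edgeR adjusted p = 0.0768). RBM8A, the partner of MAGOH, rose in HEL (0.20 ± 0.08, edgeR adjusted p = 0.0467). It fell in MOLM-13 (-0.25 ± 0.09, edgeR adjusted p = 0.0329). Genes of these lists were not followed under the alternatives. Of 22 other RNA-binding proteins of the hnRNP type, 7 fell and 2 rose in MOLM-13 and 6 fell and 2 rose in HEL. The shares were 31.8% and 9.09% in MOLM-13, beside 14.3% and 18.1% of all genes. In HEL they were 27.3% and 9.09%, beside 14.1% and 20.7%. TAF15, an RNA-binding protein, had near equal changes of -0.88 ± 0.06 in HEL and -0.85 ± 0.07 in MOLM-13 (edgeR adjusted p = 2.51e-15 and 1.67e-14), which were larger in size than that of any member. MBNL1 fell in HEL (-0.34 ± 0.07) and KHSRP in MOLM-13 (-0.40 ± 0.07).

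Of 13 U2 recruitment and branch site factors, 4 fell in MOLM-13, or 30.8% beside 14.3% of all genes. Among them were PHF5A (-0.34 ± 0.09, edgeR adjusted p = 0.00265), a partner of SF3B1, and SF1 (-0.28 ± 0.06, edgeR adjusted p = 0.000513), which first binds the branch site. In HEL 0 of those 13 were called by edgeR, and 1 had an unadjusted p under 0.05. Of 14 U5 and tri-snRNP proteins, 2 fell and 2 rose in MOLM-13, shares of 14.3% each that were near those of all genes. In HEL 4 rose, or 28.6% beside 20.7% of all genes. PRPF8, the core of the U5 snRNP, rose in each line (0.18 ± 0.06 in HEL and 0.16 ± 0.06 in MOLM-13), PRPF4 rose in HEL (0.26 ± 0.08), and PRPF3 and TXNL4A fell in MOLM-13 (-0.44 ± 0.08 and -0.26 ± 0.08). Of 18 genes of the PRPF19 complex and the catalytic steps, 5 fell in MOLM-13, or 27.8%. In HEL 4 fell and 3 rose, or 22.2% and 16.7% beside 14.1% and 20.7% of all genes. DHX38, a helicase of the catalytic steps, was at -0.58 ± 0.09 in MOLM-13 (edgeR adjusted p = 9.79e-07). It was also called lower in HEL (-0.22 ± 0.08, edgeR adjusted p = 0.0263). Its change was more negative in MOLM-13 (difference -0.36 ± 0.12, edgeR adjusted p = 0.0342). XAB2 fell in both lines (-0.32 ± 0.08 in HEL and -0.44 ± 0.09 in MOLM-13) and SYF2 in HEL (-0.38 ± 0.07).

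**Figure D4:**
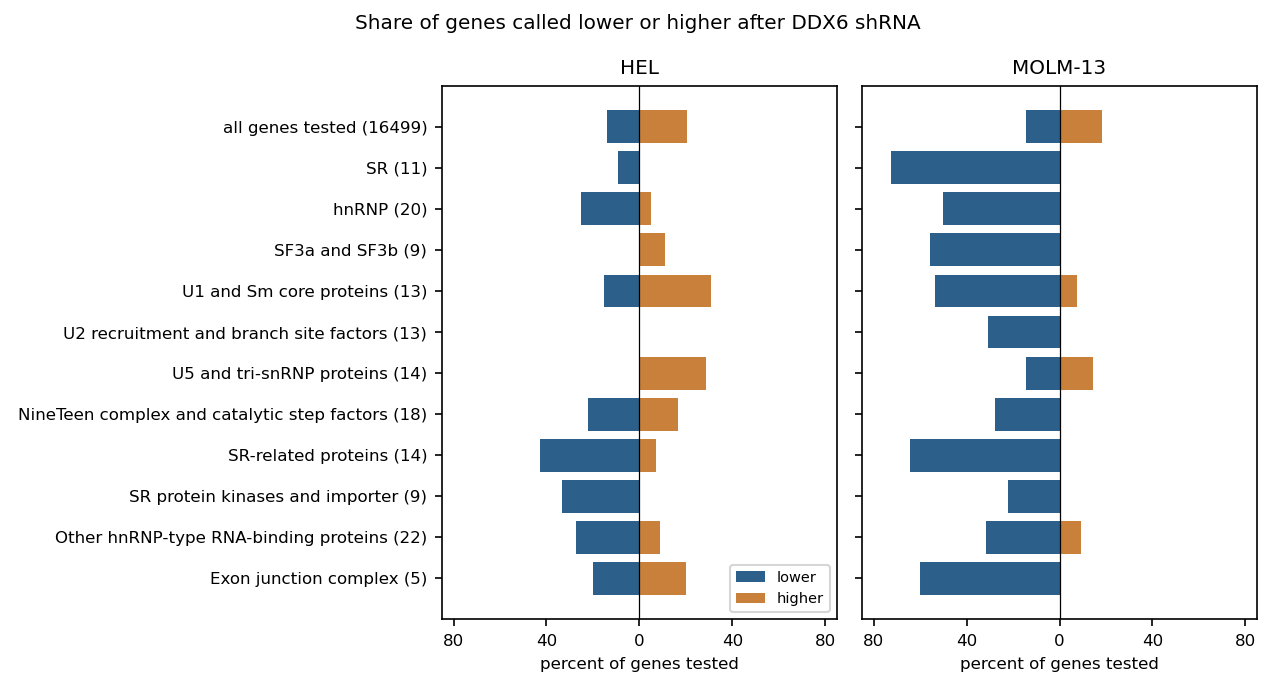
Percent of genes tested (x axis, left of 0 for lower and right for higher) called by edgeR at an adjusted p under 0.05 in HEL and MOLM-13, for all genes, the 3 families and 8 lists of other splicing genes, with the number of genes in brackets. In MOLM-13 the bars for lower reach 72.7% for SR genes and 55.6% for SF3 genes, beside 14.3% for all genes.

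The families differ in transcript structure as annotated in GENCODE release 29. At least 1 transcript marked as a target of nonsense-mediated decay was annotated for 11 of 11 SR genes, 13 of 20 hnRNP genes and 3 of 9 SF3 genes, or 67.5% of members, beside 42.5% of 13207 protein-coding genes tested. Of the 23 members that fell in MOLM-13, 15 had such a transcript, as did 12 of the 17 with no call. The counts are sums per gene, so the productive and the decaying forms of these genes were not measured apart. The GC content of the 3′ UTR had a median of 36.2% in members and 42.3% in the coding genes tested. Across the 40 members, the log2 fold change in MOLM-13 had a Spearman rho of -0.44 with the GC content of the coding sequence, beside 0.07 across all coding genes with a value, and in HEL these were -0.03 and 0.06. This was the largest rho in size of the features read. In MOLM-13 the members had -0.40 for 3′ UTR GC content and -0.21 for GC content of the whole transcript. The values were 0.02 for transcript length and -0.03 for 3′ UTR length. Genes are not independent, and all points of a line share the same 4 libraries, so these are descriptions.

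Promoters were read from RefSeq (GRCh38.p14), 300 bases from 250 before to 50 after each start, since many members moved together in MOLM-13. Of the 40 members 37 matched, with 52 promoters among 35116, and SF3B3, SRSF2 and HNRNPA1 were not matched. After the fold changes were known, 10 motifs were counted on both strands: the short CCAAT box, the GC box GGGCGG, the TATA box TATAAA, the ETS type CCGGAAG, the YY1 type ATGGCGG, the longer box GATTGGC (which contains CCAAT on its other strand), the E2F type TTTCGCG, the E-box CACGTG and a further 2 palindromes of 10 letters that were found in 0 and 3 of the 37. A gene was counted when at least 1 of its promoters had the motif. CCAAT, the letters of the box that NF-Y binds, was present for 17 of 19 hnRNP genes, 2 of 10 SR genes and 1 of 8 SF3 genes, beside 43.3% of coding genes tested. By promoter it was in 19 of 30 for hnRNP, 3 of 13 for SR and 1 of 9 for SF3 genes, beside 34.6% of all promoters. CCGGAAG, which holds the GGAA core of ETS factors, was present for 6 of 8 SF3 genes, 3 of 19 hnRNP genes and 2 of 10 SR genes, beside 22.0% of coding genes tested. By promoter it was in 6 of 9 for SF3, 3 of 30 for hnRNP and 2 of 13 for SR genes, beside 10.3% of all promoters. Of the 21 matched members that fell in MOLM-13, 11 had CCAAT and 7 had CCGGAAG. These shares were near those of all 37 matched members, of which 20 had CCAAT and 11 had CCGGAAG. A match is a run of letters and not a shown binding site.

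To show these letters, 140 bases (125 before to 15 after the start) are printed 5′ to 3′ on the strand of the gene for 4 SF3 genes and 5 hnRNP genes that fell in MOLM-13, with capitals on each match of CCGGAAG in the SF3 genes and of CCAAT in the hnRNP genes, on either strand. SF3A1 lies at chr22:30356880-30357019 (minus), SF3A2 at chr19:2236699-2236838 (plus), SF3A3 at chr1:37990008-37990147 (minus) and SF3B4 at chr1:149927789-149927928 (minus). HNRNPUL1 lies at chr19:41264247-41264386 (plus), HNRNPAB at chr5:178204408-178204547 (plus), HNRNPA0 at chr5:137754349-137754488 (minus), HNRNPF at chr10:43408843-43408982 (minus) and HNRNPUL2 at chr11:62727443-62727582 (minus).
SF3A1: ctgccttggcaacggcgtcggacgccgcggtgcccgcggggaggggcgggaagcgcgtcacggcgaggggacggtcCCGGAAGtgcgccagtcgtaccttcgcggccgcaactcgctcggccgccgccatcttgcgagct
SF3A2: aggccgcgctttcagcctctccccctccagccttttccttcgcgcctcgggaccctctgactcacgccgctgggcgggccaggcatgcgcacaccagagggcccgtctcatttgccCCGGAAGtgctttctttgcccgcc
SF3A3: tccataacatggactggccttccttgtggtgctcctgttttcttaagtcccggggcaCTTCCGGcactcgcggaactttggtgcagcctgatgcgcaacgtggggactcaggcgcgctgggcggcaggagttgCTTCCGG
SF3B4: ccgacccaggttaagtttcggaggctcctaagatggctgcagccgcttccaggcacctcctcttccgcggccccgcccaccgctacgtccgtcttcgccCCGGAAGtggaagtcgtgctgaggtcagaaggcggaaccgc
HNRNPUL1: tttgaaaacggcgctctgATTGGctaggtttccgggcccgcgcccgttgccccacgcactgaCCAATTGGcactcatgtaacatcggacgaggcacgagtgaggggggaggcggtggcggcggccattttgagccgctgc
HNRNPAB: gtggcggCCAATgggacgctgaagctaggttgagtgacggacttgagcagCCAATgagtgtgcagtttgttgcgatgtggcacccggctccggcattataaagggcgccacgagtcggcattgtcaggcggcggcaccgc
HNRNPA0: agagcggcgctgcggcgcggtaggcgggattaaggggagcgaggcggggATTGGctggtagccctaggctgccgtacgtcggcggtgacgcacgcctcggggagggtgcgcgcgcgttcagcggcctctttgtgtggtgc
HNRNPF: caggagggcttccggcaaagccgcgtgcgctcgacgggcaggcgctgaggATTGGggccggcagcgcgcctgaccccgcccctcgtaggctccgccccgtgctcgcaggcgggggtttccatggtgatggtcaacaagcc
HNRNPUL2: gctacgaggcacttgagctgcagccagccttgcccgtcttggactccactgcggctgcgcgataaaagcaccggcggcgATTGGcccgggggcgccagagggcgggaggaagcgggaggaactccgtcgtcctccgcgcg
In HNRNPUL1 the match on each strand overlaps the other, which gives 1 longer run of capitals. In HNRNPAB the box stands in 2 places, and SF3A3 has CCGGAAG in 2 places. Neither motif sorted the members by the test between lines: of the SF3 genes with CCGGAAG, SF3A2, SF3A3 and SF3B4 were called and SF3A1, SF3B2 and SF3B6 were not, and of the genes with CCAAT, SF3B5, SRSF3 and SRSF8 were called while HNRNPUL1 and HNRNPAB were not.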

How the data were processed

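RNA-seq counts for 8 libraries (2 in each of 4 groups) came from 2 tables that the authors deposited, 1 for each line. As deposited by the authors, these are raw counts, whole numbers for each gene with no scaling. The tools named per the submitters' processing notes were STAR, DESeq2 and SAMtools 1.12, with GRCh38. For the counter, strand setting and annotation release, the answer is not given in the sources used here, and gene counts do not separate isoforms. Columns were matched to samples by line, shRNA and replicate number in their names; 0 were left unused.

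Here, all 8 libraries were fitted together with edgeR 4.0.16 (R 4.3.3): filterByExpr with a minimum count of 10 (16499 genes left), TMM scaling, 1 mean per group and the quasi-likelihood test, with Benjamini-Hochberg adjustment over all genes and a threshold of 0.05. The script was tested on simulated data. The SE is the log2 fold change over the square root of F, and 95% intervals use the residual and prior degrees of freedom (4 and 40). Positions, lengths and overlaps came from GENCODE release 29. Full library values are given for members with a log2 change of at least 0.5 and those with the smallest adjusted p in each family, and for SRSF1, SRSF2, SF3B1 and HNRNPA1. From each other list, up to 2 called genes in each line are named. Members and lists were chosen with earlier results of these data known. Alternatives were RLE and upper-quartile scaling, no filter, DESeq2 1.42.0, a replicate block, removal of the GC trend, each line alone and leaving out each library.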

Additional observations from a re-analysis of the deposited data

Results flagged for a closer look

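For 8 members the test of the change in MOLM-13 against that in HEL passed the threshold (edgeR adjusted p under 0.05), and each was more negative in MOLM-13. On the log2 scale the difference was -0.52 for SF3B5, -0.50 for SRSF8, -0.49 for SF3A2, -0.49 for SF3B4, -0.31 for SF3A3, -0.28 for SRSF7, -0.25 for SRSF3 and -0.24 for HNRNPA1. SF3B4 and SF3B5 were called under all 16 alternatives that give a difference, and SF3A2 and SRSF8 under 15, the exception being the fit without the second MOLM-13 DDX6 shRNA library. SF3A3 was called under 12, HNRNPA1 under 11, and SRSF3 and SRSF7 under 10 each. Groups of 2 libraries are too small for a test of single outlying libraries.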

How the results depend on the processing

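The count of members lower in MOLM-13 stayed within 1.5 times of 23, at 16 to 24 over the alternatives. The other counts moved. Members lower in HEL (6) were 10 with upper-quartile scaling and 18 with the line fitted alone, and 4 to 17 without 1 library. Members higher in HEL (2) were 1 with upper-quartile scaling, 1 with no filter, 7 with the GC trend removed, with or without the replicate block, and 5 with the line fitted alone, and 0 to 3 without 1 library. Members higher in MOLM-13 (0) were 1 with the GC trend removed, with or without the block, and 0 to 2 without 1 library. Members that differed between lines (8) were 15 with the GC trend removed, and 3 to 13 without 1 library. The cause of these moves was not tested. Same-numbered libraries deviated together with a correlation of 0.121 in HEL and -0.145 in MOLM-13, so the numbers were not taken as pairs; with the replicate block the counts were 2 higher and 5 lower in HEL, 0 and 21 in MOLM-13, and 8 for the difference. Under the block HNRNPA0 in HEL (edgeR adjusted p = 0.0809) and HNRNPR and SRSF10 in MOLM-13 had no call. With the MOLM-13 numbers crossed, chosen after seeing the data, they were 7 and 11 in HEL, 1 and 24 in MOLM-13, and 16 for the difference. Called under every alternative were 4 of 8 members in HEL, 14 of 23 in MOLM-13 and 2 of 8 for the difference, and no called member changed sign. Members near 0 without a call did: in HEL, SRSF1 was at -0.00099 with RLE scaling, -0.03 with upper-quartile scaling, -0.0045 with no filter, -5e-05 with DESeq2, -0.0027 with the GC trend removed with or without the block, and -0.03 with the line alone, and SRSF3 was at -0.02 with upper-quartile scaling and with the line alone. In MOLM-13, HNRNPA2B1 was at -0.0047 with upper-quartile scaling, -0.0034 with no filter and -0.01 with the line alone. Without 1 library, log2 fold changes that crossed 0 ranged in HEL from -0.05 to 0.01 for SF3A2, -0.05 to 0.03 for SF3A3, -0.03 to 0.03 for SRSF1, -0.06 to 0.0063 for SRSF2, -0.04 to 0.06 for SRSF3, -0.0015 to 0.14 for SRSF6 and -0.06 to 0.0053 for HNRNPU. In MOLM-13 they ranged from -0.10 to 0.01 for SF3B2, -0.01 to 0.10 for SF3B3, -0.07 to 0.04 for SF3B6, -0.04 to 0.07 for HNRNPA2B1, -0.09 to 0.01 for HNRNPA3, -0.01 to 0.09 for HNRNPDL, -0.21 to 0.03 for HNRNPH1, -0.12 to 0.01 for HNRNPH3, -0.13 to 0.21 for HNRNPLL and -0.03 to 0.11 for HNRNPU. Where a library is left out, the lone library of its group is assumed to vary like the other groups. At 2 libraries a group, log2 fold changes of members up to 0.19 in size missed the threshold.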
